A study of Homo sapiens with 2 samples.

Results

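The 10 genes described here encode 7 matrix metalloproteinases, MMP1, MMP3, MMP9, MMP10, MMP13, MMP14 and MMP24, and 3 of their tissue inhibitors, TIMP1, TIMP2 and TIMP3. They were picked by name with their array values already known, so every value of theirs is a description and none is a test. Probe sets were kept where the platform annotation paired them with 1 of these symbols alone, which gave 19 of the 41091 probe sets with 1 gene and 10 of the 19775 genes named on the array. RD-treated cells were PC-3 cells exposed for 24 h to 10 µmol/L RD (riccardin D, a macrocyclic bisbibenzyl from a liverwort), a dose given by the study and not by the sample labels. Control cells were PC-3 cells given the DMSO vehicle according to the treatment protocol, although their source name calls them untreated. PC-3 is an established human prostate carcinoma line whose growth does not need androgen. Total RNA of each condition went onto 1 Affymetrix HG-U133 Plus 2 array, so no spread between cultures can be given and no p-value is printed.

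Matrix metalloproteinases are zinc-dependent proteases that cut collagens, laminins and other parts of the extracellular matrix. Most are secreted as inactive precursors whose propeptide blocks the active site until plasmin, a furin-like protease or another metalloproteinase removes it. TIMPs bind the active site and block it. In prostate and other carcinomas this protease system is known for its part in invasion and in the release of growth factors from the matrix.

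The values are MAS5 signals, that is, linear intensities of a probe set after background and mismatch correction. Trimmed by 2% at either end, the mean signal of the RD array was 495.9 and that of the control array 495.8. A gene is called higher or lower here when RD and control signals were 2-fold apart or more and the brighter one reached 66.9, the median of all signals, which is named the floor. The brightest probe set stood for its gene, and where only the brighter signal reached the floor the fold is a bound against the floor. As the only error that could be measured, the SD of log2 differences of probe sets about the mean of their gene was taken. It was 0.76 over 18518 probe sets whose brighter signal reached the floor. Over 8576 probe sets whose brighter signal reached 377.4, the 75th percentile, it was 0.34. Of 6 measured epithelial markers, 3 had a signal at the floor. The keratin KRT18 had 15416.6 in RD-treated cells and 10224.2 in control cells, KRT8 had 159.3 in RD-treated cells and 113.8 in control cells, and KRT7, the only one called, was 2.25-fold lower with 2440.5 in RD-treated cells and 5497.8 in control cells. The adhesion genes EPCAM and CDH1 stayed under the floor on both arrays. Of 5 measured prostate markers, 2 had a signal at the floor, namely KLK3 (prostate-specific antigen) and FOLH1. KLK3 had 230.6 in RD-treated cells and 131.4 in control cells by its brightest probe set, whose suffix marks shared sequence. Of its 3 probe sets, 1 was higher and 2 were lower in RD-treated cells (log2 differences from -1.21 to 0.81), so KLK3 has no direction here. FOLH1 was called lower with 4.8 in RD-treated cells and 67.1 in control cells, barely above the floor.

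Of the 10 genes, 3 were called higher in RD-treated cells, namely MMP10, MMP3 and MMP1, and 1, TIMP2, was called lower. Among all 19775 genes, 7.84% were called higher and 8.63% lower. Because the members were chosen from this same contrast, nothing is read from that background. Both signals of MMP13, MMP24 and TIMP3 lay under the floor, and MMP9, MMP14 and TIMP1 differed less than 2-fold. By probe set, 3 of 19 were called higher and 5 of 19 lower, with 8.14% and 7.99% of all probe sets with 1 gene called in these directions.

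**Figure D1:**
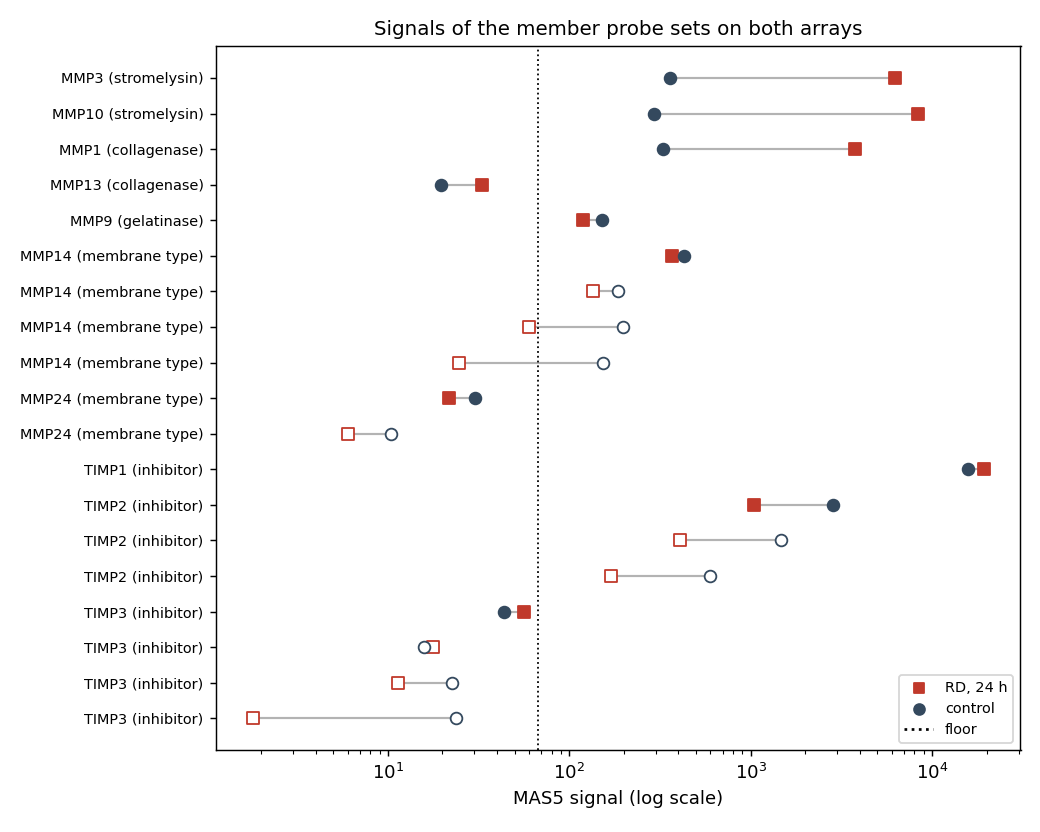
MAS5 signal (horizontal, log scale) of each of the 19 member probe sets in RD-treated cells (red squares) and control cells (dark circles), joined by a line, with 1 array per condition. Symbols are filled for the probe set that stands for its gene and open for others, and a dotted line marks the floor (66.9). The squares of MMP3, MMP10 and MMP1 lie far to the right of their circles, and all 3 probe sets of TIMP2 lie to the left.

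The stromelysins had the largest differences of the family. MMP10 (stromelysin-2), which degrades proteoglycans and laminin and helps to activate procollagenases, had a signal of 8407.7 in RD-treated cells, against 292.9 in control cells. This is 28.7-fold higher, a log2 difference of 4.84, and only 1 other of the 10782 genes with both signals at or above the floor differed as much in this direction. MMP3 (stromelysin-1), which cuts a similar range of matrix proteins and activates the precursors of MMP1 and MMP9, had 6285.2 in RD-treated cells and 359.5 in control cells. Its signal was thus 17.5-fold higher (log2 difference 4.13), a size reached or passed by 5 of those 10782 genes, MMP3 included. Each stromelysin was read by 1 probe set, and the log2 differences of MMP10 and MMP3 lay 0.72 apart, beside a probe set SD of 0.34 at this brightness. MMP3 and MMP10 are close paralogs, and whether either probe set also binds the transcript of the other gene was not tested.

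The collagenases were split. MMP1 (interstitial collagenase), which opens the triple helix of fibrillar collagens, had a signal of 3739.8 in RD-treated cells and 330.6 in control cells. It was 11.3-fold higher, with a log2 difference of 3.50 that 12 of the 10782 genes reached, itself among them. The log2 difference of MMP1 was 1.34 under that of MMP10 and 0.63 under that of MMP3. MMP13 (collagenase-3), which prefers type II collagen, had 33.1 in RD-treated cells and 19.7 in control cells. With both values under the floor, no fold is given for MMP13.

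The promoter of MMP10 is shown because this gene differed most, beside that of MMP7 (matrilysin), a gene of the same chromosomal cluster whose signals stayed under the floor, and that of TIMP1, which differed little. AP-1 is the dimer of FOS and JUN family proteins through which many metalloproteinase genes are known to be induced. Windows of 250 bases upstream of the transcription start were taken from RefSeq (GRCh38.p14), whose table held 5 of the 10 members (MMP10, MMP14, MMP24, TIMP1 and TIMP3) and 4 of 5 further cluster genes. The windows are MMP10 at chr11:102780629-102780878 on the minus strand, MMP7 at chr11:102530748-102530997 on the minus strand and TIMP1 at chrX:47582186-47582435 on the plus strand. Capitals mark the AP-1 pattern TGANTCA, the TATA box TATAAA, the PEA3 (ETS family) pattern AGGAAG and the GC box GGGCGG, on either strand.
MMP10: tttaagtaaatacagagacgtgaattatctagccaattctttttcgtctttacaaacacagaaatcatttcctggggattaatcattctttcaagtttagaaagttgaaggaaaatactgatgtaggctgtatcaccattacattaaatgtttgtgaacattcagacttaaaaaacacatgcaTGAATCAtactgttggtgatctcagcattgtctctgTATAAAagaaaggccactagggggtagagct
MMP7: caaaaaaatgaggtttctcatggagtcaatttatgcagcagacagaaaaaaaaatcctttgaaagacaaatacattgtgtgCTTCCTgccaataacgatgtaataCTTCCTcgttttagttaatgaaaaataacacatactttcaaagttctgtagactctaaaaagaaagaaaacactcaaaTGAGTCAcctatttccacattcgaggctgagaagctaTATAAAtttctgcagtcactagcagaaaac
TIMP1: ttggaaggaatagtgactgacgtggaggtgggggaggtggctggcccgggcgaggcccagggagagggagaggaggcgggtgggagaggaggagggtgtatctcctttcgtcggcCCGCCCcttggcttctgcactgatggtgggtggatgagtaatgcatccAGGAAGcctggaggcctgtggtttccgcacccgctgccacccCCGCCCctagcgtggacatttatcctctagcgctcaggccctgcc

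In the MMP10 window the AP-1 pattern began 67 bases before the start and the TATA box 31 bases before it. The MMP7 window held both at 67 and 30 bases, with AP-1 in the stricter form TGAGTCA and with 2 PEA3 matches. The TIMP1 window held 2 GC boxes and 1 PEA3 match, and no exact match to TGANTCA or TATAAA. Only exact matches were marked, so near variants such as tgagtaa, shortly before the PEA3 match of TIMP1, carry no capitals. An absence of AP-1 sites from TIMP1 is therefore not read from these letters. No capitals overlap each other. Over 27305 RefSeq promoter windows of the same length, 6.60% held TGANTCA, 4.16% TGAGTCA, 11.1% TATAAA, 28.7% AGGAAG and 42.3% GGGCGG. The windows of MMP10 and MMP7 thus shared AP-1 and TATA matches at nearly the same distances, although the signals of MMP7 were 11.2 in RD-treated cells and 34.1 in control cells, both under the floor. Matches of this kind describe the letters alone and are not evidence that a protein binds there.

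The 3 higher genes lie side by side. On chromosome 11, RefSeq orders 9 metalloproteinase genes as MMP7, MMP20, MMP27, MMP8, MMP10, MMP1, MMP3, MMP12 and MMP13, with no other protein-coding gene between them. MMP10, MMP1 and MMP3 are consecutive in this row, and both signals of each of the other 6 lay under the floor. MMP8 (neutrophil collagenase), the neighbour on the MMP10 side, had 58.8 in RD-treated cells and 29.7 in control cells. MMP12 (macrophage elastase), the neighbour on the MMP3 side, had 18.1 in RD-treated cells and 7.5 in control cells. Of the 6 protein-coding genes around the cluster, 5 were measured and none was called. These were YAP1, a coactivator of the Hippo pathway (1.41-fold higher), BIRC2, an inhibitor of apoptosis (1.58-fold higher), TMEM123 (1.73-fold lower), DCUN1D5 (1.13-fold higher) and the dynein gene DYNC2H1 (1.37-fold higher). BIRC3 was not analysed here. The transcribed pseudogene WTAPP1 overlaps MMP1 and MMP3 in RefSeq and was not measured by a probe set of its own name.

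**Figure D2:**
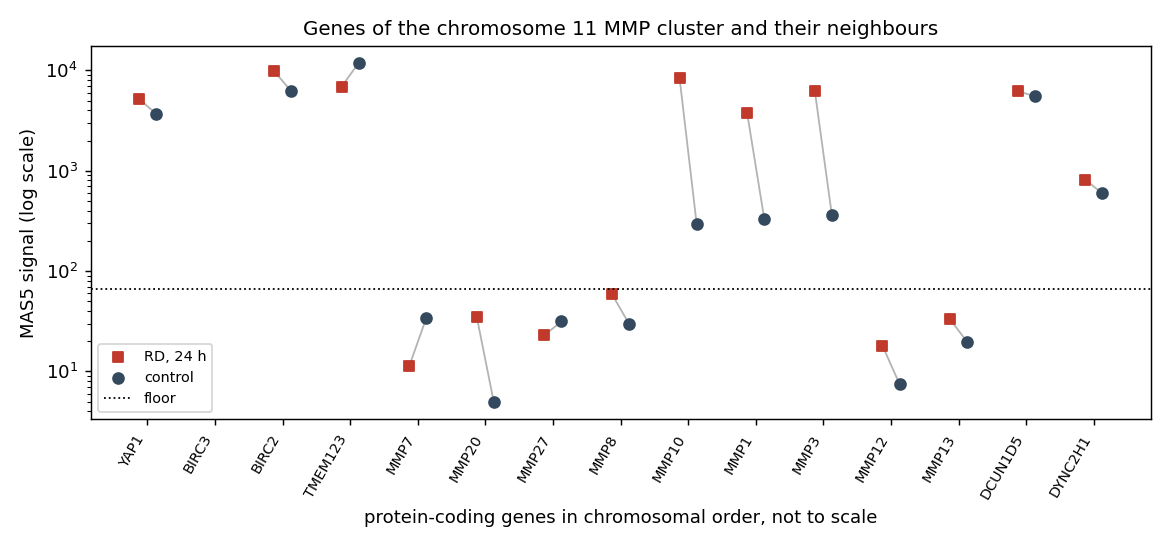
MAS5 signal (vertical, log scale) of the 15 protein-coding genes from YAP1 to DYNC2H1 in their order on chromosome 11, not to scale, in RD-treated cells (red squares) and control cells (dark circles), by the brightest probe set and with 1 array per condition. MMP10, MMP1 and MMP3 stand next to each other with RD signals of 3739.8 to 8407.7, while the other 6 MMP genes lie under the dotted floor of 66.9 on both arrays. BIRC3 has no point.

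The gelatinase and the membrane-type enzymes were not called. MMP9 (gelatinase B), which cuts type IV collagen and denatured collagen, had 118.8 in RD-treated cells and 152.4 in control cells, 1.28-fold lower and within 1 probe set SD. MMP14 (MT1-MMP), a collagenase anchored in the plasma membrane that activates the MMP2 precursor, had 369.6 in RD-treated cells and 426.4 in control cells by its brightest probe set, 1.15-fold lower. Its 3 dimmer probe sets were lower too, but by very different amounts. The second had 135.5 in RD-treated cells and 186.1 in control cells (1.37-fold lower). The third had 60.3 in RD-treated cells and 197.8 in control cells (at least 2.96-fold lower). The dimmest had 24.6 in RD-treated cells and 154 in control cells (at least 2.30-fold lower). The 4 log2 differences had an SD of 1.14, so the direction was shared and the size was not settled. MMP24 (MT5-MMP), a membrane-type enzyme best known from the nervous system, had 21.8 and 6 in RD-treated cells and 30.3 and 10.4 in control cells by its 2 probe sets, all under the floor.

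The inhibitors did not move together. TIMP1, which inhibits most secreted metalloproteinases and MMP14 only weakly, had the high signal of 19320.6 in RD-treated cells and 15769.8 in control cells, 1.23-fold higher. Its log2 difference of 0.29 was smaller than the probe set SD of 0.34. TIMP2, which inhibits MMP14 and also bridges MMP14 to the MMP2 precursor, had 1048 in RD-treated cells and 2847.9 in control cells by its brightest probe set, 2.72-fold lower. The other 2 TIMP2 probe sets had 405.5 in RD-treated cells against 1461.4 in control cells (3.60-fold lower) and 169.1 in RD-treated cells against 595.3 in control cells (3.52-fold lower). All 3 thus gave the same call, with a mean log2 difference of -1.70 ± 0.23 (SD over 3 probe sets, which are not replicates of the treatment). TIMP3, an inhibitor that stays bound to the matrix, had 56.6 in RD-treated cells and 43.5 in control cells by its brightest probe set. Its 4 probe sets lay under the floor on both arrays and 2 of them were on each side of 0, so TIMP3 has no direction here.

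**Figure D3:**
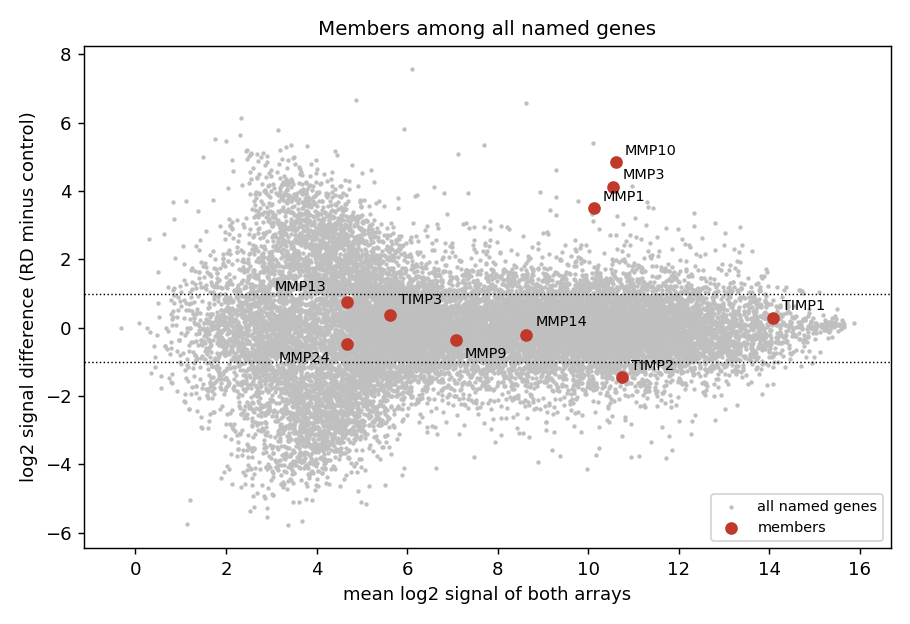
Log2 signal difference (RD minus control, vertical) against the mean log2 signal of both arrays (horizontal) for the 19775 named genes (grey) and the 10 members (red), with 1 array per condition and dotted lines at 2-fold. MMP10, MMP3 and MMP1 (4.84, 4.13 and 3.50) stand at the upper edge of the cloud at their brightness, TIMP2 (-1.44) at its lower part, and MMP13, MMP24 and TIMP3 in the wide dim part.

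Set side by side, the log2 difference of MMP10 exceeded that of TIMP1 by 4.55, that of MMP3 by 3.83 and that of MMP1 by 3.21. The log2 difference of MMP14 lay 1.24 above that of TIMP2 by the brightest probe sets. These are differences of changes and not ratios of transcript amounts, since signals of different probe sets cannot be set against each other. Protein and enzyme activity were not measured. In these bulk RNAs, a larger share of cells with the transcript and more transcript per cell cannot be told apart.

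The rest of the family was mostly dim. Of 17 further MMP genes and TIMP4, 16 were measured, 11 of them with both signals under the floor, and 2 of the 5 others were called lower while none was called higher. Among all 12818 genes with a signal at the floor, 1551 were called higher and 1707 lower. MMP17 (MT4-MMP), a membrane enzyme held by a lipid anchor, had 14.5 in RD-treated cells and 164.2 in control cells, at least 2.45-fold lower. It was read by 1 probe set, whose suffix marks shared sequence. MMP28 (epilysin) had 59.9 in RD-treated cells and 166.4 in control cells, at least 2.49-fold lower. Of its 5 probe sets, 2 were higher in RD-treated cells, both under the floor. MMP16 (MT3-MMP) was 1.48-fold lower by its brightest probe set, with 410.7 in RD-treated cells and 608.9 in control cells, and its other 4 probe sets were all called lower. MMP2 (gelatinase A), the enzyme that MMP14 and TIMP2 help to activate, had 243.6 in RD-treated cells and 380.3 in control cells, 1.56-fold lower. RECK, a membrane-anchored inhibitor of metalloproteinases, was 1.08-fold lower by its brightest probe set, whose suffix marks shared sequence. Of the 5 RECK probe sets, 4 were lower and 1 was higher, with log2 differences from -1.86 to 1.29. MMP17, MMP28 and MMP25 (56.9 in RD-treated cells and 91.3 in control cells) reached the floor on the control array alone, so the counts and directions among these 5 are partly set by the floor.

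**Figure D4:**
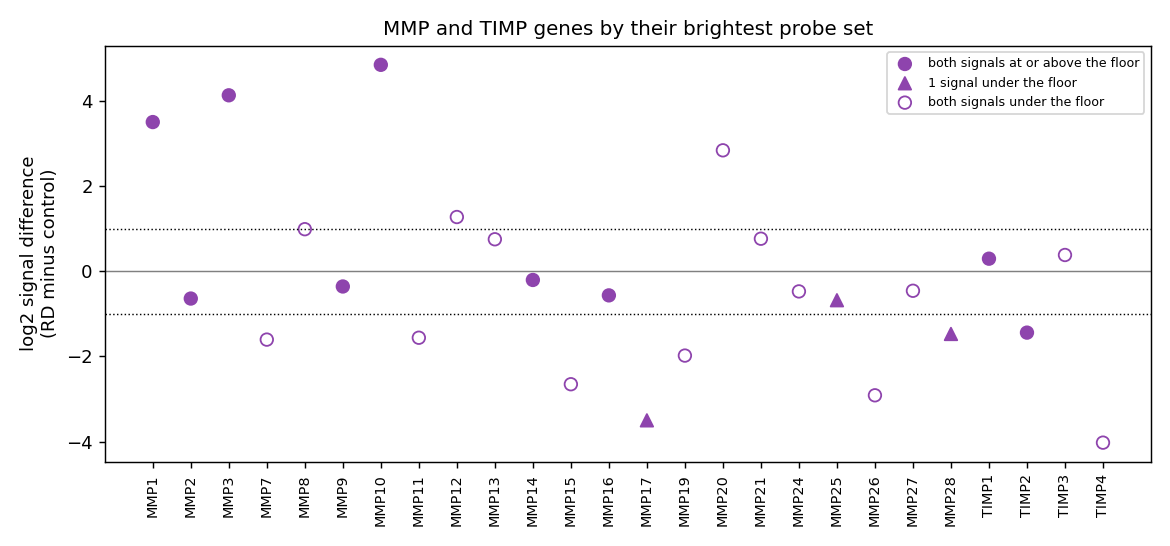
Log2 signal difference (RD minus control) of each of the 26 measured MMP and TIMP genes by its brightest probe set, with 1 array per condition and dotted lines at 2-fold. Filled circles have both signals at or above the floor, triangles have 1 signal under it, and open circles have both under it and carry no call. MMP1, MMP3 and MMP10 are the only filled symbols above the upper line.

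Genes that act on or with these enzymes were taken as lists. The counts of each list here and below stand beside 1551 genes called higher and 1707 lower among all 12818 with a signal at the floor. Because the lists were chosen with earlier results of these data known, nothing is read from that background. Of 12 activators of metalloproteinase precursors, 8 had a signal at the floor, 3 were called lower and none was called higher, with a median log2 difference of -0.44, against -0.0022 over the 12818 genes in all with a signal at the floor. PLAU (urokinase), which turns plasminogen into plasmin, had 1066.8 in RD-treated cells and 12853.3 in control cells, 12.0-fold lower. Its receptor PLAUR was 2.35-fold lower, and PLAT (tissue plasminogen activator) was 4.83-fold lower with 70.6 in RD-treated cells and 341 in control cells. FURIN, the convertase that activates membrane-type enzymes, was 1.06-fold higher. By these probe sets, the activators of plasmin and the stromelysins, which are themselves activators, differed in opposite directions. PLAU and PLAT were read only by probe sets whose suffix marks shared sequence. The PLAUR probe set without such a suffix had a log2 difference of -0.97 and was not called.

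Of 17 transcription factors known from metalloproteinase promoters, 16 were measured, 15 had a signal at the floor, 4 were called higher and 2 lower, with a median log2 difference of 0.53. FOS, a partner of JUN in AP-1, had 617.6 in RD-treated cells and 83.5 in control cells, 7.40-fold higher. FOSB was at least 3.13-fold higher, since its control signal of 15 was under the floor. EGR1, an immediate early zinc finger factor, was 3.59-fold higher by the brightest of its 3 probe sets, all of which were called higher. RELA, a subunit of NF-kB, was 2.03-fold higher, at the edge of the rule, and its log2 difference of 1.02 fell short of it after median centring (0.98) or quantile normalization, which left 3 factors called higher. JUN itself was 1.45-fold higher, and 1 of its 4 probe sets was called higher. Among ETS factors, ETV1 was 3.47-fold lower, ETV4 was at least 2.28-fold lower by 1 probe set and 1.46-fold higher by its other (not called by their median), and ETS1 was 1.67-fold higher. Whether any of these factors has a part in the MMP10, MMP3 and MMP1 signals was not tested.

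Of 12 genes for docking, clearance and induction of metalloproteinases, 10 had a signal at the floor, 4 were called lower and 1 higher (median log2 difference -0.76). CAV1 (caveolin-1), the coat protein of caveolae, was 4.76-fold lower with 4578.2 in RD-treated cells and 21771.9 in control cells. The tetraspanin CD9 was 3.15-fold lower by its brightest probe set, but 1.29-fold and 1.06-fold lower by its other 2. ITGB3, an integrin chain whose dimer binds MMP2, was at least 1.48-fold lower by its brightest probe set, while 3 of its 7 probe sets were higher in RD-treated cells. By the median over probe sets neither CD9 (log2 difference -0.37) nor ITGB3 (-0.24) was called, which left 2 genes of the list lower, and ITGB3 was not called without shared-sequence probe sets or with signals raised to the floor (-0.56). SDC1, a heparan sulfate proteoglycan that MMP7 sheds, was 2.36-fold lower. LCN2 (lipocalin-2), which forms a complex with MMP9, barely reached the floor with 68.8 in RD-treated cells, against 13.3 in control cells, a bound of 1.03-fold. CD44, which holds MMP9 at the cell surface, was 1.33-fold lower and BSG, a known inducer of metalloproteinases, was 1.26-fold lower.

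Of 28 matrix substrates, 24 were measured, 15 had a signal at the floor, 3 were called lower and 2 higher (median log2 difference -0.19). NID1 (nidogen-1), HSPG2 (perlecan) and LAMA5 are parts of the basement membrane, and were 3.45-fold, 3.02-fold and 2.47-fold lower by their brightest probe sets. The 3 probe sets of NID1 ran from -1.79 to 2.14 on the log2 scale, and by their median (-0.79) it was not called. LAMB3, a chain of laminin-332, was 2.15-fold higher and SPP1 (osteopontin) at least 1.89-fold higher by its brighter probe set. With the offset of the 25th percentile both lost their call (log2 differences of 0.94 and 0.99), which left no substrate higher. SPP1 also lost it with signals raised to the floor (0.92) and turned to -0.55 by the median of its 2 probe sets. Among related proteases, 1 of 11 ADAM genes was called higher and 3 lower, of which ADAM8 and ADAM28 reached the floor on the control array alone, with bounds of 1.27-fold and 1.03-fold. ADAM17, the enzyme that sheds TNF and ligands of the EGF receptor, was 2.33-fold higher with 4155.4 in RD-treated cells and 1783.7 in control cells, while ADAM9 was 2.57-fold lower. Of 18 measured ADAMTS genes, 1 was called higher and 3 lower, and the brighter signal of these 4 was at most 115.5.

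**Figure D5:**
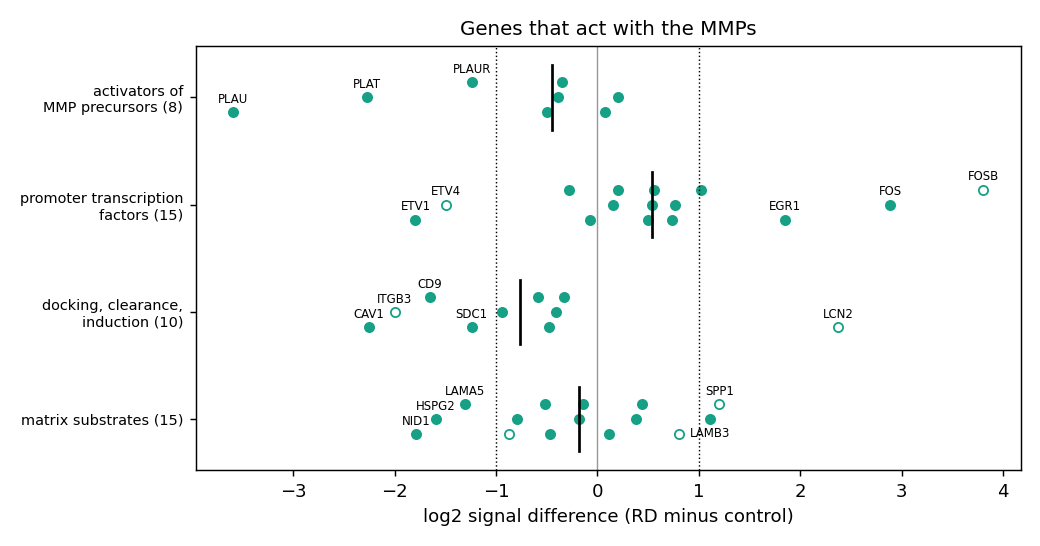
Log2 signal difference (RD minus control) of each gene with a signal at the floor in 4 lists, with the number of such genes in brackets and 1 array per condition. Vertical bars are medians (-0.44, 0.53, -0.76 and -0.19 from top to bottom), dotted lines mark 2-fold, and open circles have 1 signal under the floor, where the plotted difference is not a bound. PLAU lies farthest to the left, and FOS and FOSB farthest to the right.

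Markers of other cell types were read on the same arrays. Of 7 fibroblast markers, 3 had a signal at the floor and none was called. COL1A1 had 325.8 in RD-treated cells and 370.6 in control cells. DCN had 95.2 in RD-treated cells and 118 in control cells, and PDGFRA had 62.8 in RD-treated cells and 77.5 in control cells. Of 6 measured leukocyte and macrophage markers, 2 had a signal at the floor and none was called. CSF1R had 83.3 in RD-treated cells and 115.1 in control cells, and CD3D had 65.9 in RD-treated cells and 84.6 in control cells. PTPRC (CD45), which defines leukocytes, stayed under the floor with 7.6 in RD-treated cells and 30.6 in control cells. Of 5 endothelial markers, 2 had a signal at the floor and TEK was called higher at a bound of 1.55-fold. The other, PECAM1, had 72.7 in RD-treated cells and 121.6 in control cells and was not called. No marker was listed at 0. Over the 3 lists, 11 of 18 measured genes had both signals under the floor. Whether other cell types have a part in the MMP signals was not tested.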

How the data were processed

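One Affymetrix HG-U133 Plus 2 array per condition measured total RNA of PC-3 cells. The values deposited by the authors are linear intensities, namely MAS5 signals per the labels. Neither the version nor the scaling target of MAS5 is given in the sources used here. From these signals, log2 differences (RD minus control) were taken with no offset or further scaling. Gene names came from the platform annotation, checked against RefSeq of GRCh38.p14 with no symbol changed, and 1801 probe sets with several genes and 11721 not named here stood for none. The rule of size, the floor and the bound are those given with the results. No test was made, since 1 array per condition sets the limit of precision. The members and lists were chosen with earlier results of these data known. Named were all members, other MMP genes past the rule (and at most 3 others), up to 3 genes at each end of a list past the rule, and the neighbours of the cluster. RELA and SDC1 were named beyond this limit of 3. MMP7, MMP8, MMP12, RECK, FURIN, JUN, ETS1, CD44, BSG and the cell type markers were named after their values were seen. As alternatives, arrays were centred on the median or quantile normalized, 17.1 (the 25th percentile) was added to each signal, genes were read by the median of their probe sets or without probe sets whose suffix marks shared sequence, the floor was dropped, set to 377.4 or used to raise dimmer signals, and the threshold was 1.5-fold or 3-fold. Tools were Python 3.11.15 with pandas 2.3.3, numpy 2.4.6 and matplotlib 3.10.9.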

Additional observations from a re-analysis of the deposited data

How the results depend on the processing

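The count of 3 higher members (MMP10, MMP3 and MMP1) was the same under all 10 alternatives, but most of these could not have changed it. Each was read by 1 probe set, whose name carries no mark of shared sequence. Their control signals lay above the floor, their RD signals above 377.4, and each was at least 11.3-fold higher. Other choices of probe set, floor or threshold therefore had no bearing on these 3 genes. Only centring, quantile normalization and the offset altered their log2 differences. These ranged from 4.76 to 4.87, from 4.06 to 4.13 and from 3.43 to 3.50. The log2 difference of TIMP2 ranged from -1.85 to -1.43. The count of lower members, 1 as reported, was 2 with the median over probe sets, where MMP14 (-1.09) joined TIMP2, and 0 at a 3-fold threshold. Of the other MMP genes and TIMP4, 2 were lower as reported. This count was 1 without probe sets that share sequence (14 genes measured), 8 without a floor and 4 at 1.5-fold. It was 0 with the floor at the 75th percentile and 1 at 3-fold, and 2 were higher without a floor. Without shared-sequence probe sets MMP17 could not be read, MMP28 was not called, and the 1 lower gene was MMP25 (-1.19). With the median over probe sets the count stayed 2, but MMP16 (-1.38) was called lower and MMP28 (-0.66) was not. With the median over probe sets, the log2 differences of ADAM28 and SPP1 turned to 1.92 and -0.55, and without shared-sequence probe sets that of MMP28 turned to 1.55. Of 120 recomputed list counts, 87 stayed within 1.5 times. Without shared-sequence probe sets PLAU and PLAT could not be read and PLAUR, at -0.97, was not called, so none of the 9 activators left was lower. No paired analysis was possible because each condition had 1 array. MAS5 subtracts mismatch signal, and no detection calls were used here, so differences of dim genes such as TIMP3 and MMP24 are noisy.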
